A study of Mus musculus with 6 samples.

Results

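The genes described here are 10 mouse enzymes that make serine and pass its carbon to folate: Phgdh, Psat1, Psph, Shmt1, Mthfd1, Shmt2, Mthfd2, Mthfd2l, Mthfd1l and Aldh1l2. They were chosen by symbol from what the enzymes do, but with earlier results of these data known, as were the other gene lists below. All 10 were found among the 30281 gene symbols of the deposited tables. Each had at least 1 TPM (a level of transcript corrected for length and scaled to a fixed total per library) in all 6 libraries, and all 10 passed the filter on low counts.

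Serine is made in the cytosol from an intermediate of glycolysis in a chain of reactions carried out in turn by PHGDH, PSAT1 and PSPH. Serine hydroxymethyltransferases then split serine into glycine and a one-carbon unit held by folate, with SHMT1 in the cytosol and SHMT2 in mitochondria. In mitochondria MTHFD2 or MTHFD2L oxidises the unit, MTHFD1L releases it as formate and ALDH1L2 can oxidise it to carbon dioxide with gain of NADPH. In the cytosol MTHFD1 takes up formate for purine and thymidylate synthesis. The complex mTORC1, which TSC2 restrains and rapamycin inhibits, is known to raise several of these enzymes through the transcription factor ATF4.

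The 6 libraries were poly(A) RNA-Seq of cultured mouse cells, 1 library per condition. A pair came from mouse embryo fibroblasts (MEFs), labelled Tsc2+/+ p53-/- and Tsc2-/- p53-/-, both without treatment. The other 4 came from MKOC and TJ, a pair of kidney epithelial lines labelled Tsc2-null, of which TJ is labelled as derived from a secondary tumor in C57BL6 mice. Each line was untreated, which in the treatment protocol means diluent, or exposed for 18 hours to rapamycin at 100 nM, in DMEM with BSA and no serum. The lines stand for themselves only: no genotype was sequenced in more than 1 MEF line, no Tsc2+/+ kidney line and no rapamycin-treated MEFs were included, and whether the lines are clones is not given in the sources used here.

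Estimated counts per library ranged from 22887020 to 37505004. Tsc2 was not at 0 in the libraries labelled as lacking it. It stood at 22.6 TPM in the MEF library labelled Tsc2+/+, at 10.5 TPM in that labelled Tsc2-/-, at 49.1 and 44.0 TPM in untreated MKOC and TJ, and at 19.5 and 19.1 TPM with rapamycin. RNA of the gene does not show whether protein was made, and directions drawn below from the MEF labels rest on the labels. The authors report a check of the MEFs that found Tsc2 expressed in the Tsc2+/+ cells and not in the Tsc2-/- cells. Epithelial markers summed to 1134 to 2016 TPM in the kidney libraries (5 of 8 at 1 TPM or more, with Epcam and Cldn7 at or near 0 and Krt19 under 1 TPM) and to 0.364 and 85.4 TPM in the MEFs, and 3 of 4 kidney lineage markers were present only in the kidney libraries. Fibroblast markers summed to 1824 and 2502 TPM in the MEFs and to 7.73 to 52.1 TPM in the kidney libraries. Macrophage and endothelial markers stayed at or under 30.8 and 3.71 TPM. Transcripts shorter than 300 bases held 20.9% of all TPM in the MEF library labelled Tsc2+/+ against 4.09% to 8.0% in the others, which lowers the TPM of longer transcripts there.

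Promoter sequence is shown for the 2 RefSeq starts of Psat1, whose transcripts are taken up below, and for the paralogs Shmt2 and Shmt1. Each run is the 100 bases just upstream of a RefSeq start (GRCm38.p6, written 5′ to 3′ on the gene's strand), and capitals mark CCAAT or its reverse complement ATTGG.
Psat1, upstream start, chr19:15925060-15925159, minus strand: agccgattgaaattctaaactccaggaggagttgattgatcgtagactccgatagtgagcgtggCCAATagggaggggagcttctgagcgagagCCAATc
Psat1, downstream start, chr19:15924623-15924722, minus strand: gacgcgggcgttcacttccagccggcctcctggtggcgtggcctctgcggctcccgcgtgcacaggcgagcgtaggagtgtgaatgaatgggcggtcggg
Shmt2, chr10:127522445-127522544, minus strand: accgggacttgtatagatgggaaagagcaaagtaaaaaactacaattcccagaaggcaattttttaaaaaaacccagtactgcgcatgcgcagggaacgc
Shmt1, chr11:60811266-60811365, minus strand: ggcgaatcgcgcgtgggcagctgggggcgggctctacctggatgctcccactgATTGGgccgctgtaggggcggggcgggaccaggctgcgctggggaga

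The upstream Psat1 window holds 2 CCAAT boxes, that of Shmt1 holds 1, and the downstream Psat1 window and that of Shmt2 hold 0. Of the members whose windows are not printed, Mthfd2 has 3, Psph has 2, Phgdh and Mthfd1 have 1 each and Mthfd1l and Mthfd2l have 0. At least 1 thus stood near a start of each of the 5 cytosolic members and of 1 of the 4 mitochondrial members with a window, Mthfd2, a split that was not tested. CCAAT was searched on both strands and was chosen after these sequences were seen. At least 1 stood in 18.9% and at least 2 in 3.57% of the 32851 RefSeq windows of this length, over all genes. In the full windows of 300 bases, from 250 before a start to 50 after it, TGATGNAA (the core of the element bound by ATF4 with C/EBP factors) was found on either strand in 0 of the 9 member genes with a window and in 3.97% of all windows. CACGTG, the E-box, was found in 0 of 9 and in 7.15% of all windows. Aldh1l2 had no window. These matches describe letters in a short stretch only.

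All 10 enzymes fell with rapamycin. In edgeR's quasi-likelihood test, fitted with a term for the line and adjusted by Benjamini-Hochberg over 12952 genes, 10 of 10 were lower at an adjusted p under 0.05, where 17.4% of all genes tested were lower and 17.5% were higher. A drop past −1 on the log2 scale that also passed was seen for 5 members, Psat1, Psph, Shmt2, Mthfd2 and Aldh1l2, and for 2.54% of all genes. The members' median log2 fold change was −1.17, beside 0.02 over all genes. It was −1.37 for the 3 serine synthesis genes, −1.43 for the 5 mitochondrial folate genes and −0.69 for the 2 cytosolic folate genes. The only replicates are the 2 lines, which leaves 1 residual degree of freedom. To it edgeR adds 9.06 prior degrees of freedom, so each gene's spread is drawn mostly from other genes in these 4 libraries. Nothing in the labels says that libraries came from separate cultures, so the p-values do not measure a spread between cultures.

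Psph, which removes the phosphate in the last step of serine synthesis, stood at 134 TPM in untreated MKOC and 23.5 TPM in treated MKOC, and at 87.2 and 15.1 TPM in TJ. Rapamycin left 17.5% and 17.3% of the untreated level, nearly the same share in both lines. The log2 fold change was −2.52 ± 0.11 (SE, edgeR, adjusted p = 1.79e-06), and only 35 of the genes tested fell further.

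Psat1, the transaminase of the pathway, went from 723 to 313 TPM in MKOC and from 677 to 245 TPM in TJ. Both treated libraries lay far under both untreated ones, and the fitted log2 fold change was −1.37 ± 0.11 (edgeR, adjusted p = 2.88e-05). Phgdh, the first and committed enzyme, changed least of the 3. It had the highest level of all members in each library but untreated TJ, where Psat1 was higher, and went from 850 to 449 TPM in MKOC and from 647 to 431 TPM in TJ. The log2 fold change was −0.74 ± 0.12 (edgeR, adjusted p = 0.00129), with a larger drop in MKOC (log2 −0.95) than in TJ (−0.54). With the line left out of the model its adjusted p was 0.0511.

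Among the mitochondrial enzymes Aldh1l2 fell most, from 183 to 33.6 TPM in MKOC and from 186 to 27.3 TPM in TJ. The untreated lines were alike to within their counting intervals (180 to 185 and 183 to 189 TPM), and 18.4% and 14.7% of the level was left. Its log2 fold change was −2.58 ± 0.12 (edgeR, adjusted p = 1.79e-06), rank 34 from the lowest of 12952.

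Shmt2 went from 232 to 82.0 TPM in MKOC and from 193 to 76.7 TPM in TJ. Its log2 fold change was −1.42 ± 0.10 (edgeR, adjusted p = 1.43e-05). Mthfd2 went from 187 to 81.7 TPM in MKOC and from 205 to 66.0 TPM in TJ, a log2 fold change of −1.43 ± 0.12 (edgeR, adjusted p = 3.06e-05). These enzymes act one after the other and fell by nearly the same size, although Shmt2 fell further in MKOC (log2 −1.50 against −1.33) and Mthfd2 further in TJ (log2 −1.64 against −1.20). Mthfd1l, the formate-releasing enzyme, went from 39.8 to 22.2 TPM in MKOC and from 40.8 to 18.5 TPM in TJ. Its log2 fold change was −0.97 ± 0.11 (edgeR, adjusted p = 1.89e-04).

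Mthfd2l, the paralog of Mthfd2, was the least abundant member in every library. Its 9.61 TPM (95% counting interval 8.71 to 10.6) in untreated MKOC became 7.12 TPM (6.25 to 8.10) with rapamycin, and 12.1 TPM became 6.47 TPM in TJ. The intervals do not overlap within either line, and the log2 fold change was −0.68 ± 0.17 (edgeR, adjusted p = 0.0112). With the line left out of the model the adjusted p was 0.0773. Its level per length was under that of Mthfd2 in all 6 libraries.

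Of the cytosolic folate enzymes, Shmt1 went from 46.6 to 30.04 TPM in MKOC and from 47.1 to 27.5 TPM in TJ, a log2 fold change of −0.81 ± 0.11 (edgeR, adjusted p = 4.62e-04). Mthfd1, which joins several activities in 1 protein, went from 65.6 to 46.7 TPM in MKOC and from 74.4 to 48.3 TPM in TJ, a log2 fold change of −0.57 ± 0.10 (edgeR, adjusted p = 0.00202). It was the smallest fitted change of the 10, and differences in size between members were not tested. The treated libraries stayed under the untreated libraries of both lines for Shmt1 and for Mthfd1, as they did for every other member.

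**Figure D1:**
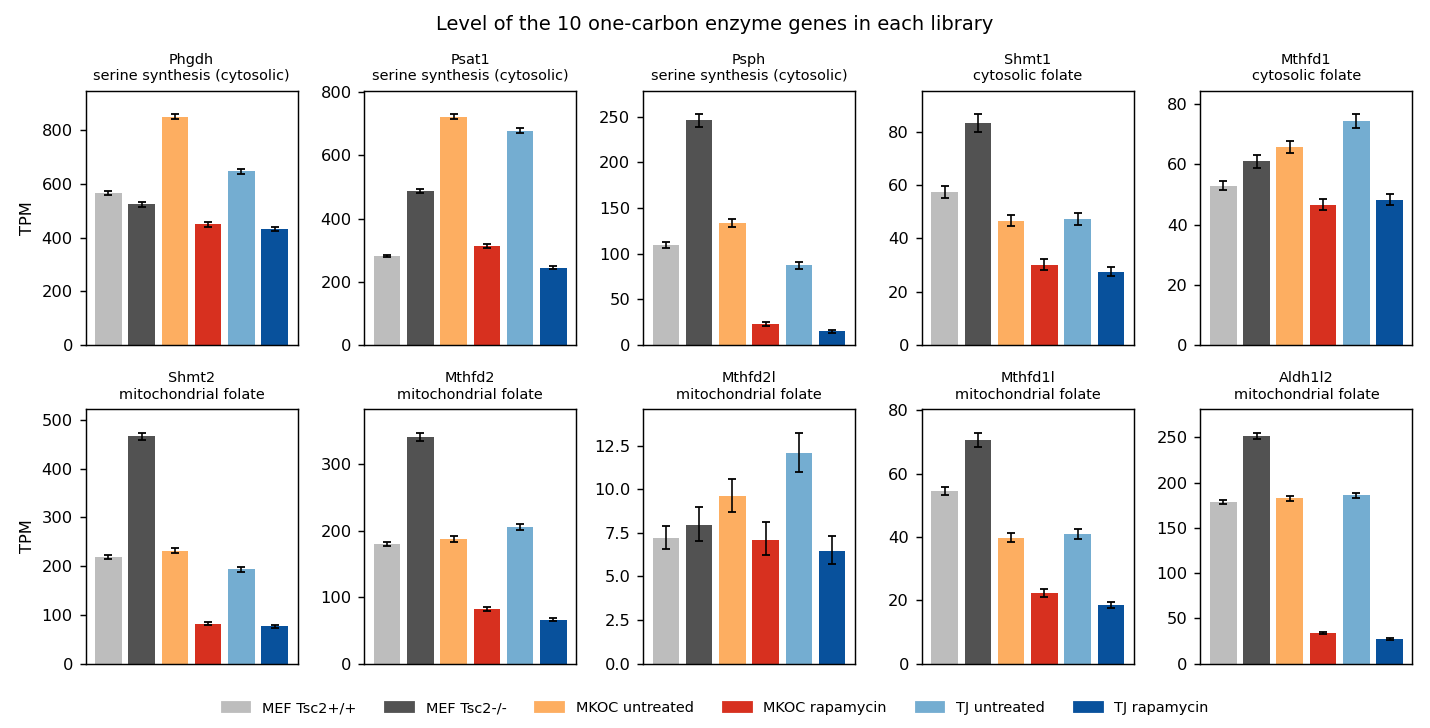
Level of the 10 genes in TPM (vertical axis of each panel, starting at 0) in each of the 6 libraries (bars, colours in the key). Error bars are 95% Wilson intervals from the estimated counts and cover counting error only. The rapamycin bars lie under the untreated bars of both kidney lines in all 10 panels. As a share of the untreated level they are lowest for Psph (23.5 and 15.1 TPM) and Aldh1l2 (33.6 and 27.3 TPM).

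Within each line alone, on CPM (counts scaled to a fixed total per library) with 1 added, 10 of 10 members were lower with rapamycin in both lines, as were 37.9% of all genes tested. A drop past −0.5 on the log2 scale in both lines was seen for 8 members and 6.72% of all genes. Past −1 in both lines it was seen for the same 5 members as in the fit and for 1.27% of all genes. Whether the lines differ in their response could not be tested, because a line-by-treatment term leaves no residual degree of freedom. Summed over the 10 members, the level went from 2470 to 1089 TPM in MKOC and from 2170 to 962 TPM in TJ. In bulk RNA, fewer cells of a kind and less RNA per cell cannot be told apart.

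Epithelial markers moved the other way under the same treatment. Of 5 tested, 4 were higher (Krt7, Krt8, Krt18 and Cldn4, the last with an adjusted p of 0.121 under DESeq2), and the list's summed level was 1134 and 1146 TPM in the untreated libraries and 1948 and 2016 TPM in the treated ones. Of 3 kidney lineage markers tested, Cdh16 was higher while Pax2 and Pax8 were at log2 −0.01 and −0.11 and did not pass. The 1 macrophage marker tested, Csf1r, was higher, 0 of 2 endothelial markers passed, and 2 of 7 fibroblast markers were higher (Dcn and, at an adjusted p of 0.0425, Col3a1), with the fibroblast sum at 7.73 and 26.7 TPM before and 13.3 and 52.1 TPM after treatment. With the line left out of the model Cdh16, Csf1r, Dcn, Col3a1 and Cldn4 did not pass (adjusted p from 0.143 to 0.575), and Col3a1 did not pass under limma or with no filter either. The part of these markers in the members' result was not tested.

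**Figure D2:**
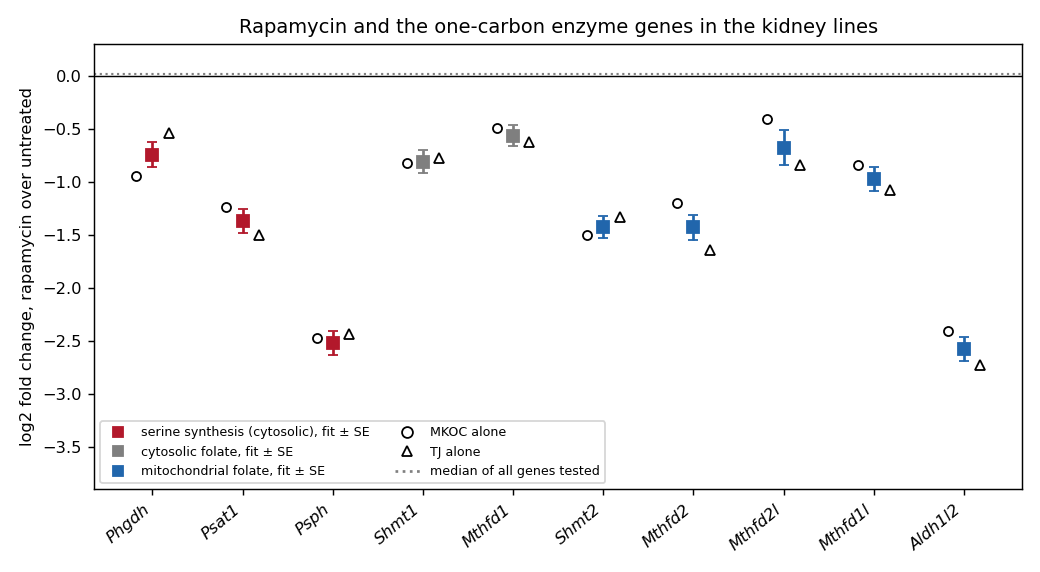
Log2 fold change of rapamycin over untreated (vertical axis) for each gene (horizontal axis). Squares are the edgeR fit with its standard error, circles are MKOC alone and triangles TJ alone on CPM with 1 added, and the dotted line is the median of all genes tested (0.02). Both lines lie under 0 for all 10 genes. In the fit Psph at −2.52 and Aldh1l2 at −2.58 are furthest down and Mthfd1 at −0.57 is nearest to 0, while in single lines Mthfd2l in MKOC (−0.41) and Phgdh in TJ (−0.54) are nearest to 0.

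The mitochondrial enzymes can be set against their cytosolic counterparts within each library as a share of summed TPM. Shmt2 made up 83.3% of Shmt2 plus Shmt1 in untreated MKOC and 73.2% with rapamycin, and 80.4% and 73.6% in TJ. Mthfd2 made up 74% of Mthfd2 plus Mthfd1 in untreated MKOC and 63.6% with rapamycin, and 73.4% and 57.8% in TJ. Both shares were lower in each treated library than in either untreated one, with mitochondrial enzymes still in the majority per length. On estimated counts, which are not corrected for length, Mthfd2 made up 50.7% of its pair in treated MKOC (95% Wilson interval 49.3 to 52.1) and 45.0% in treated TJ (43.6 to 46.3).

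Mthfd1l was the lesser partner of Mthfd1 in the kidney lines, at 37.7% untreated and 32.2% treated in MKOC and at 35.4% and 27.6% in TJ. Aldh1l2 dominated its cytosolic counterpart Aldh1l1, a folate dehydrogenase, at 98.1% and 90.3% in MKOC and 97.3% and 86.9% in TJ. Aldh1l1 itself was low, at 3.56 and 3.61 TPM in MKOC and 5.11 and 4.12 TPM in TJ, and its log2 fold change of −0.11 ± 0.18 did not pass the test (edgeR, adjusted p = 0.688). In all 4 pairs, then, the mitochondrial share was lower with rapamycin in both lines. Mthfd1 is the partner of both Mthfd2 and Mthfd1l, so these pairs are not separate. Mthfd2l was not paired. Set against Mthfd1, it fell less in MKOC (log2 −0.41 against −0.50) and more in TJ (−0.84 against −0.63). The change in these shares was not tested.

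**Figure D3:**
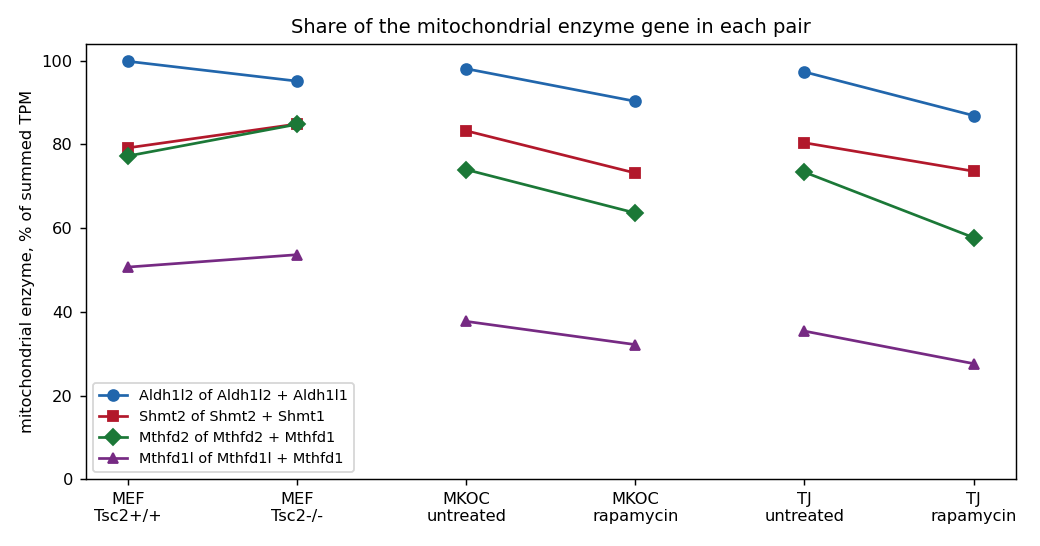
Share of the mitochondrial enzyme gene in the summed TPM of each mitochondrial and cytosolic pair (vertical axis, percent, starting at 0) in the 6 libraries (horizontal axis). Lines join the libraries of the MEFs and of each kidney line. Each share is lower with rapamycin in MKOC and TJ, and in the MEFs the shares of Shmt2, Mthfd2 and Mthfd1l are higher in the library labelled Tsc2-/- while that of Aldh1l2 is lower (95.1% against 99.9%).

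The rest of the folate and glycine network was counted in the same fit. Of 38 other genes listed, 33 were tested, of which 18 were lower and 1 was higher, with a median log2 fold change of −0.41. The glycine cleavage system had 2 of 3 lower, folate reduction and methyl use 4 of 7, folate carriers and polyglutamation 2 of 6, users of formyl groups 5 of 7, and serine and glycine transport and breakdown 5 of 10. The count for folate reduction and methyl use was 1 of 7 under DESeq2, 2 of 7 under limma and 0 of 7 with the line left out of the model. With the line left out, 10 of all 33 were lower, with 1 of 3 for glycine cleavage and 3 of 7 for users of formyl groups. These counts stand beside 17.4% of all genes lower in the fit with the line and 5.53% without it. Small ones such as 2 of 6 rest on few genes, and no list was tested against these shares.

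The largest changes in this list were in transport and breakdown. Gnmt, a glycine methyltransferase, had a log2 fold change of −1.75 ± 0.36 (edgeR, adjusted p = 0.00484), from levels of only 4.12 and 2.70 TPM in untreated MKOC and TJ, and it did not pass under DESeq2 (adjusted p = 0.0526) or with the line left out (0.0732). Slc1a4, a transporter of neutral amino acids that include serine, went from 28.1 to 11.6 TPM in MKOC and from 26.9 to 8.34 TPM in TJ (log2 −1.49 ± 0.13). Sfxn3, a relative of the mitochondrial serine carrier Sfxn1, was the exception. It rose from 42.1 to 94.2 TPM in MKOC and from 38.7 to 80.5 TPM in TJ, a log2 fold change of 1.102 ± 0.10 (edgeR, adjusted p = 5.03e-05).

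Gcat, which works on glycine in threonine breakdown, fell by 1.09 on the log2 scale, and the glycine transporter Slc6a9 fell by 0.80. Slc25a32, the mitochondrial folate carrier, had a log2 fold change of −0.77 ± 0.13 (edgeR, adjusted p = 0.00172). The purine synthesis enzymes Pfas and Ppat fell by 0.73 and 0.71 on the log2 scale. Tyms, which makes thymidylate, had a log2 fold change of −0.59 ± 0.11 (edgeR, adjusted p = 0.00244, or 0.0649 with the line left out). Gldc, the decarboxylase of glycine cleavage, was at or under 0.0308 TPM in the kidney libraries and was not tested.

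Of 16 genes in the ATF4 list, which is made up of the factor and known targets other than the members, 15 were tested and all 15 were lower, with a median log2 fold change of −1.56. Slc3a2, an amino acid transporter subunit, was the weakest (log2 −0.31, edgeR, adjusted p = 0.042) and did not pass under DESeq2, limma, upper-quartile normalization or with the line left out (adjusted p from 0.0665 to 0.201). The factor's own RNA went from 575 to 310 TPM in MKOC and from 568 to 250.1 TPM in TJ, a log2 fold change of −1.05 ± 0.11 (edgeR, adjusted p = 1.10e-04). The largest drops were those of Ddit3 (log2 −2.87) and Trib3 (−2.62), which take part in the stress response, followed by Ddit4 (−1.79, with an adjusted p of 0.0682 when the line was left out of edgeR's model), Vldlr (−1.67), the proline synthesis enzyme Aldh18a1 (−1.65), Chac1 (−1.57), Nupr1 (−1.57) and asparagine synthetase, Asns (−1.56). Psph and Aldh1l2 lay between Trib3 and Ddit4 in size.

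**Figure D4:**
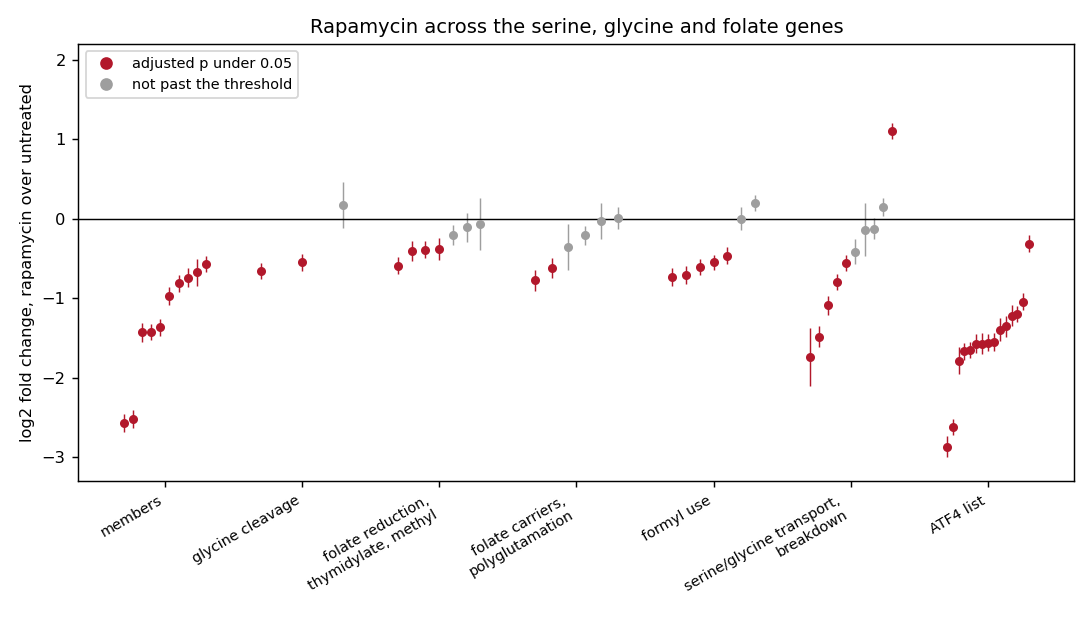
Log2 fold change of rapamycin over untreated with its standard error (vertical axis, edgeR fit) for the genes tested in each list (horizontal axis, 1 point per gene, sorted within a list). Red points passed an adjusted p of 0.05 and grey points did not. All 10 members and all 15 genes of the ATF4 list lie under 0 in red, whereas 19 of the 33 other one-carbon genes are red and 1 of them, Sfxn3 at 1.102, lies above 0.

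TJ and MKOC were compared next. In the line term of the same fit, which uses the same 4 libraries as the rapamycin comparison, 1 of 10 members passed, beside 3.32% of all genes lower and 5.47% higher in TJ. It was Psph, with a log2 difference of −0.63 ± 0.11 for TJ over MKOC (edgeR, adjusted p = 0.00705). The difference was −0.63 between the untreated and −0.59 between the treated libraries, on CPM with 1 added. With treatment left out of the model its adjusted p was 1.0. The other 9 members had log2 differences from −0.25 (Psat1) to 0.10 (Mthfd1), with standard errors from 0.10 to 0.17, and none passed.

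In the MEFs, set against each other as 1 library each with no test, 9 of the 10 members had a higher TPM in the library labelled Tsc2-/-, beside 73.8% of all genes. The median log2 fold change over genes was 0.45, so a member is better read against that shift. The members' median was 0.51, and 6 of 10 lay above the median of all genes. With TPM scaled to a median ratio of 1, 6 members and 54.9% of all genes were higher.

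Psph stood at 110.0 TPM in the library labelled Tsc2+/+ and 246 TPM in that labelled Tsc2-/-, and Shmt2 at 218 and 467 TPM. These were the 2 members past 2-fold (log2 1.15 and 1.09 with 1 TPM added), where 25.2% of all genes were at least 2-fold higher and 5.18% at least 2-fold lower. With scaled TPM they were at 0.77 and 0.70, and 0 members passed 2-fold beside 16.1% of genes at least 2-fold higher and 8.35% lower. Without the transcripts under 300 bases they were at 0.93 and 0.86, and 0 members passed beside 20.0% of genes higher and 6.67% lower.

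Mthfd2 was next, at 180 and 341 TPM (log2 0.92), then Psat1 at 282 and 487 TPM (0.79), Shmt1 at 57.4 and 83.1 TPM (0.53) and Aldh1l2 at 179 and 252 TPM (0.49). These stayed higher under each scaling, with log2 values of 0.53, 0.40, 0.14 and 0.10 on scaled TPM. The median of all genes was 0.08 on scaled TPM, so Shmt1 and Aldh1l2 lay near the typical gene. Mthfd1l, at 54.5 and 70.7 TPM, had a log2 value of 0.37 as deposited and −0.01 on scaled TPM. Mthfd1 at 52.9 and 61.0 TPM (log2 0.20) and Mthfd2l at 7.18 and 7.96 TPM (0.13) turned to −0.18 and −0.21 on scaled TPM, so no direction holds for these 3. Phgdh, at 565 and 523 TPM, was lower under every scaling (log2 −0.11 as deposited, −0.50 on scaled TPM).

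Ratios within a library do not depend on its scaling. The share of Shmt2 in its pair was 79.2% in the MEF library labelled Tsc2+/+ and 84.9% in that labelled Tsc2-/-, and the share of Mthfd2 was 77.2% and 84.8%. On estimated counts those of Mthfd2 were 67.0% (95% Wilson interval 66.3 to 67.8) and 77.1% (76.3 to 77.8), so they differ beyond counting error. The share of Mthfd1l was 50.7% and 53.7%. Aldh1l1 was at 0.244 TPM in the library labelled Tsc2+/+ and 12.9 TPM in the other. Of the other one-carbon genes, 8 of 33 with at least 1 TPM were at least 2-fold higher and 0 lower, with a median log2 of 0.42, and of the ATF4 list 5 of 16 were higher and 1, Stc2, was lower, with a median of 0.38. These counts, on TPM as deposited, stand beside 25.2% of all genes at least 2-fold higher, a share that was 16.1% on scaled TPM.

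**Figure D5:**
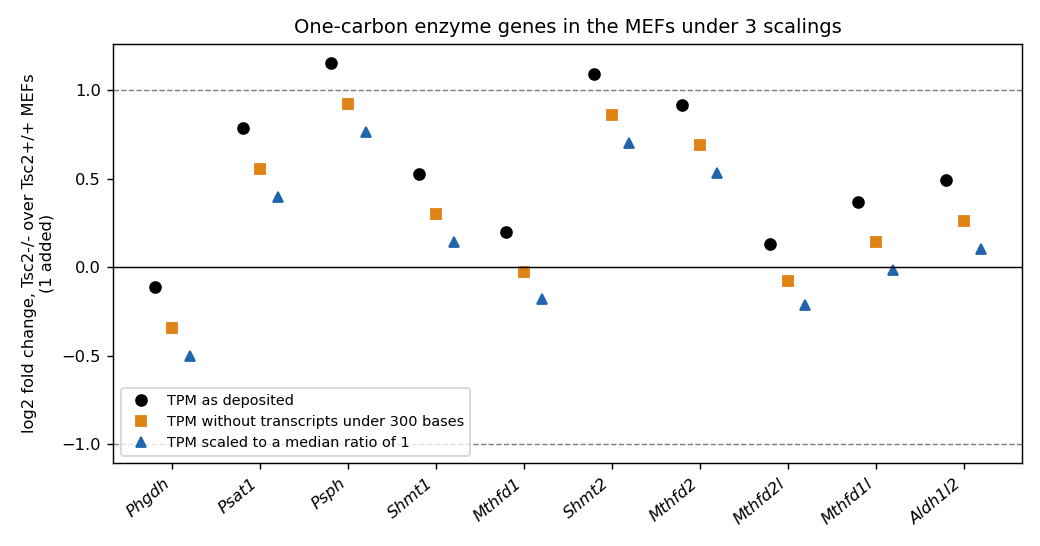
Log2 fold change of the MEF library labelled Tsc2-/- over that labelled Tsc2+/+ with 1 TPM added (vertical axis) for each gene (horizontal axis), 1 library each, under 3 scalings (symbols). Dashed lines mark 2-fold. Psph and Shmt2 pass 2-fold only on TPM as deposited (1.15 and 1.09), and Mthfd1, Mthfd2l and Mthfd1l lie on both sides of 0.

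The comparisons use different libraries and can be set side by side. A higher value in the MEF library labelled Tsc2-/- together with a call as lower with rapamycin in the kidney lines was seen for 9 of 10 members, all but Phgdh, and for 15.4% of the 11462 genes in both comparisons. As Mthfd1, Mthfd2l and Mthfd1l change sign with the scaling of the MEF libraries, 6 of the 9 hold under each scaling. On scaled TPM these 6 of 10 stand beside 11.3% of 11344 genes. As all 10 members were called lower with rapamycin, the joint counts only repeat those of the MEFs alone. There 73.8% of all genes were higher on TPM as deposited and 54.9% on scaled TPM.

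Between the cell types, with tissue, line and genotype confounded, Shmt1 and Mthfd1l were lower in all 4 kidney libraries than in both MEF libraries. Shmt1 spanned 27.5 to 47.1 TPM in the kidney libraries against 57.4 and 83.1 TPM, and Mthfd1l spanned 18.5 to 40.8 TPM against 54.5 and 70.7 TPM. Of all genes, 21.4% were lower and 26.8% higher without overlap. A count of 2 of 10 lower, Shmt1 and Mthfd1l, is thus near the background, and 0 of 10 higher is under it. Without the transcripts under 300 bases Shmt2, Mthfd2 and Aldh1l2 joined them, making 5 of 10 lower and 0 higher beside 26.9% and 24.4% of all genes, and the same 5 were lower on TMM-scaled CPM, beside 24.8% lower and 27.5% higher. Treated and untreated libraries are both counted here, and the treated ones were the lowest of all for each of these genes.

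The transcripts of Psat1 differed in share between the cell types, and members were not ranked by such differences. The gene lies on chromosome 19 (GRCm38, 15904678 to 15947337, minus strand), and its main transcripts, ENSMUST00000025542 and ENSMUST00000162053, both protein coding with 9 exons, differ at both ends, in the first exon (each just downstream of a promoter window shown above) and in how far the last exon reaches (to 15904678 and 15905127). The share of each therefore need not reflect the use of its start. ENSMUST00000162053 held 1.97% and 4.25% of Psat1 TPM in the MEF libraries labelled Tsc2+/+ and Tsc2-/-. It held 20.5% and 25.97% in untreated and treated MKOC and 16.3% and 17.8% in TJ, so the 4 kidney libraries lie above both MEF libraries. Both transcripts fell with rapamycin in TPM, ENSMUST00000162053 from 148 to 81.2 TPM in MKOC and from 110 to 43.7 TPM in TJ. ENSMUST00000025542 went from 534 to 208 TPM and from 519 to 180 TPM. Kallisto divides reads that fit both transcripts, so these shares are estimates and carry no test.

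For Mthfd1l, reads were divided between ENSMUST00000117291 and ENSMUST00000043735, with 66.8% and 32.7% of its TPM in the MEF library labelled Tsc2+/+, and 84.6% and 12.9% in that labelled Tsc2-/-. The Shmt1 level was spread over 11 transcripts. Its leading protein-coding transcript held 39.6% to 63.9% of the gene's TPM, and much of the rest was assigned to short retained-intron and processed transcripts. Shmt2, Mthfd1 and Mthfd2l were each 1 transcript in the table.

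The genes whose pattern over the 6 libraries was most like that of Mthfd2, by root mean square difference of centred log2(TPM + 1) among 10114 genes with at least 10 TPM in a library, were Asns (0.11), the glycyl-tRNA synthetase Gars (0.11), Esd (0.15), the asparaginyl-tRNA synthetase Nars (0.16) and Shmt2 (0.18). Mthfd1l ranked 12 and Shmt1 ranked 32. Those most like Phgdh were Gabpb1 (0.08), Ndufb8 (0.11), Mrps10 (0.12), Snupn (0.12) and Npm3 (0.13), with Mthfd1 at rank 163 and Mthfd2l at rank 239. The other members ranked lower in likeness to Mthfd2, with Aldh1l2 at 518, Psat1 at 1063, Psph at 1181, Mthfd1 at 1494, Phgdh at 1853 and its own paralog Mthfd2l at 2090. The points are 6 libraries from 3 cell sources, and the likeness is a description.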

How the data were processed

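The authors trimmed paired-end reads with Trimmomatic and ran Kallisto (version not given in the sources used here). For each of 88198 transcripts they deposited its length, effective length, TPM and estimated count. Their methods name hg38, whereas the identifiers are Ensembl mouse transcripts. The deposited fold change, a ratio between the MEF libraries, is the authors' own comparison and was read only for gene symbols (missing for 1006 transcripts, with 0.372% to 0.468% of counts, left out, and doubled for 8, of which the first was used).

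TPM and estimated counts were summed per symbol. After rounding, filterByExpr and TMM scaling, edgeR's quasi-likelihood F test was applied (line plus treatment, Benjamini-Hochberg at 0.05). The step was checked on simulated data for 12810 genes. It recovered 94 of 100 genes changed 2-fold and 99 of 100 changed 4-fold, with 10 false calls. The simulated libraries were independent and both lines responded alike, so the check cannot cover differences in response between lines. The standard error is the size of the log2 fold change over the root of F. The pairing of treated and untreated libraries comes from the line names. Libraries of a line had deviations from the treatment mean correlated at 0.61 over 12952 genes. For the MEFs, log2 used TPM with 1 added, over genes with at least 1 TPM in a library, and a 2-fold threshold.

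Members, lists and motifs were chosen with earlier results of these data known. Genes named are all members, up to 8 called genes of the pathway and ATF4 lists by size of change, Aldh1l1, Slc25a32, Gldc and Tyms as partners (others that the rule names are not reported here), and 5 nearest patterns for Mthfd2 and Phgdh. Atf4, Slc3a2, markers and Stc2 were named after their values were seen. Positions are from GENCODE M21 (GRCm38) and promoters from RefSeq. Wilson intervals at 95% use estimated counts and cover counting error only. Alternatives were DESeq2, limma on log2(TPM + 1), other normalizations, filters and pseudocounts, no line term, CPM, scaled TPM, removal of short transcripts and single transcripts. The fits were made in R 4.3.3 (DESeq2 1.42.0, limma 3.58.1, edgeR 4.0.16), and sums and intervals in Python 3.11.15 with scipy 1.17.1, pandas 2.3.3 and numpy 2.4.6.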

Additional observations from a re-analysis of the deposited data

How the results depend on the processing

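The limits are 1 library per condition, 2 lines as the only replicates and fold changes in the MEFs that depend on scaling. All 10 members were called lower with rapamycin under DESeq2, both other normalizations, no filter and limma, and 8 (all but Phgdh and Mthfd2l) with no replicate block, that is, with the cell line left out (for TJ against MKOC, with treatment left out). The members lower in a single line numbered 10 to 10 when either line was left out. Without the block the other one-carbon genes called lower went from 18 to 10, the TJ against MKOC members called from 1 to 0, the log2 difference of Mthfd2 between TJ and MKOC from −0.08 to 0.020, and the genes called for rapamycin fell from 2259 lower and 2267 higher to 716 and 559. For the ATF4 list the count went from 15 to 13 without it, with Ddit4 and Slc3a2 lost. DESeq2 called 1596 lower and 1466 higher for rapamycin and 217 lower and 405 higher for TJ against MKOC, where edgeR called 430 and 709 with the block and 0 and 0 without it (702 genes and 0 members at an unadjusted p under 0.05), and limma 142 and 327. The MEF members past 2-fold went from 2 to 0 on scaled TPM, on CPM (beside 18.2% of genes) and without transcripts under 300 bases. The members without overlap between kidney and MEF libraries went from 2 to 5 without those transcripts and 5 on TMM-scaled CPM. Median shares over the 6 libraries moved from 79.8% to 88.4% on the leading transcripts and 83.1% on counts for Shmt2, from 73.7% to 62.5% on counts for Mthfd2, from 36.6% to 29.5% and 38.4% for Mthfd1l, and from 96.2% to 98.0% on counts for Aldh1l2, where counts are not corrected for length. The other causes were not tested.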
